A study of Mus musculus with 6 samples.

Results

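The difference between genotypes that depends on treatment was measured across all 6 arrays of the series, on which RNA of mouse hematopoietic stem cells (HSCs) from bone marrow was hybridised. For each gene it is the mean log2 ratio of Cdk6-/- to wild type on 3 polyI:C arrays minus that on 3 untreated arrays. On each array Cy5 marked a Cdk6-/- sample, and Cy3 marked pooled wild-type HSCs, sorted, of the same treatment. The 4 groups were Cdk6-/- untreated, Cdk6-/- given polyI:C, wild type untreated and wild type given polyI:C. The series calls the 3 Cdk6-/- samples of each treatment biological replicates. The wild-type side was 1 pool per treatment, hybridised 3 times, so the 2 pools carry technical spread only and a difference between the pooled mice cannot be told apart from polyI:C. The number of mice in a sample or a pool, the gate of the sort, and the dose and time of polyI:C are not given in the sources used here. A bias of a probe towards 1 dye cancels in the difference if it is the same under both treatments, which was not tested.

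HSCs are mostly quiescent and re-enter the cell cycle when blood has to be replaced. PolyI:C is a synthetic double-stranded RNA that cells sense as viral. It induces type I interferon, which switches on antiviral genes and activates resting HSCs. CDK6 is a kinase of the G1 phase that pairs with D-type cyclins and also acts on transcription.

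A difference can come from either channel, because it equals the change with polyI:C in Cdk6-/- samples minus the change in the wild-type pools. The ratio was therefore taken apart into 4 levels, Cy5 and Cy3, untreated and treated, given as log2 intensity. A level is called moved where its mean changed by at least 1 log2 unit and the 3 treated and 3 untreated values do not overlap. This is a description, since a pool is 1 sample and its change cannot be tested.

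Surface markers used to sort HSCs were present in both channels. Of 10 listed, 9 were measured, among them Kit, Ly6a (Sca-1), Slamf1 (CD150) and Procr (EPCR), and each of the 9 was well above background on all 6 arrays. Cd48 and Flt3, which more mature progenitors carry, were above background as well. The single Cdk6 probe does not check the knockout, because its place relative to the deleted part is unknown. The Cdk6 log2 ratio was 0.40, -0.41 and 0.24 untreated, where neither channel was well above background, and -0.26, -0.44 and -1.28 after polyI:C (difference -0.73, SE 0.34, limma adjusted p = 0.311).

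Some arrays stood apart. Slides were inferred from the scan date in the array headers, and arrays with the same scan date were taken as 1 slide. On polyI:C array 3, alone on its slide, 76.5% of spots were well above background in Cy5, against 47.0% to 55.7% on the other 5 arrays. The correlation of log2 ratios over genes was 0.559 between polyI:C arrays 1 and 2, but 0.132 and 0.218 between each of them and array 3. Array 3 of each treatment was low in Xist, the RNA that coats the inactive X chromosome (log2 ratio -3.98 untreated, -3.42 treated, against 0.42 to 1.87 elsewhere). Without polyI:C array 3 the count of called genes fell from 406 to 6, none with a gene symbol. So every call on a named gene below was lost in that fit. Without both arrays low in Xist the limma count was 0 (4552 genes at unadjusted p under 0.05). A fixed block for slide also left 0 calls (4438 at unadjusted p under 0.05). Slide 1 held untreated arrays 1 and 3 and polyI:C array 1, and slide 2 held array 2 of each treatment. The ratios of the treatments do not overlap for any called gene, so its sign is fixed within a slide and with arrays left out, and only the sizes given below are informative.

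**Figure D1:**
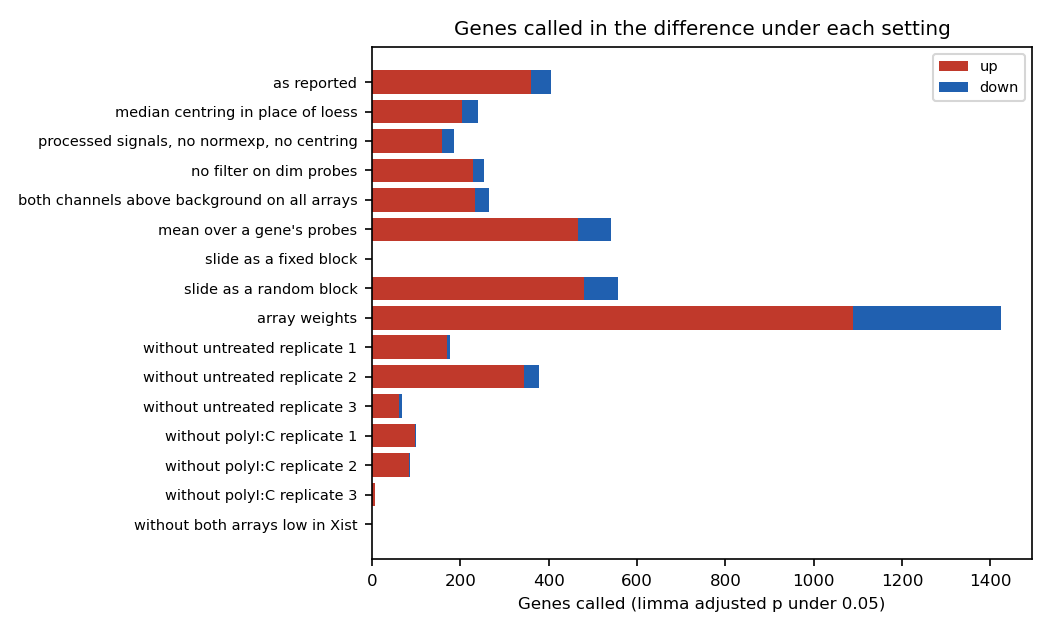
Number of genes called in the difference between treatments (horizontal axis, limma adjusted p under 0.05) under each setting (vertical axis), with genes up in red and genes down in blue. The reported fit called 361 up and 45 down, the fit without polyI:C array 3 called 6, the fits with slide as a fixed block and without both arrays low in Xist called 0, and array weights gave 1423.

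Of 22617 genes tested, 406 (1.8%) changed in ratio between treatments, and 3740 (16.5%) had an unadjusted p under 0.05, the share against which such counts in the gene lists are read. The ratio rose for 361 (1.6%) and fell for 45 (0.199%) (254 and 30 with a symbol). In all 361 that rose, the untreated ratio was below 0, and in 316 of them the ratio after polyI:C was above 0. Their median log2 ratio was -1.25 untreated and 0.45 after polyI:C. The untreated ratio by itself was called lower for 335 of them (9.94% of all genes were) and the ratio after polyI:C higher for 23 (0.327%). The 45 that fell were the mirror image, with a median of 1.09 untreated and -0.40 after polyI:C, 41 called higher untreated (3.05% of all genes) and 3 called lower after polyI:C (0.65%). These ratios enter the difference itself, so nothing is read from their counts. The ratios of the 2 treatments did not overlap for any of the 406. Over all genes, 14.4% had the 3 treated ratios all above the 3 untreated ones and 8.48% had them all below.

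In most of these genes the wild-type pool was the level that moved. Among the 361 up, the pool alone moved in 249 (69.0%), Cdk6-/- alone in 29 (8.03%), both in the same direction in 35, both in opposite directions in 4 and neither by the rule in 44. Among the 45 down, the pool alone moved in 23 (51.1%), Cdk6-/- alone in 8 (17.8%), both in the same direction in 1 and neither in 13. Over all genes tested, the pool alone moved in 8.52% and Cdk6-/- alone in 2.32%. By direction, the pool level moved down in 8.02% and up in 4.04% of all genes, and the Cdk6-/- level down in 2.99% and up in 2.87%. The median change of the 361 was -1.74 log2 units in the pools (quartiles -2.46 and -1.13) and -0.05 in Cdk6-/- samples (quartiles -0.57 and 0.49). For the 45 the medians were 1.03 in the pools and -0.55 in Cdk6-/- samples. The change of the pool was the larger of the 2 in 309 of 361 and in 30 of 45. Over genes, the median SD of a level was 0.377 and 0.468 in Cdk6-/- samples and 0.179 and 0.280 in the pools (untreated and treated), so a pool's 3 values overlap less readily.

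**Figure D2:**
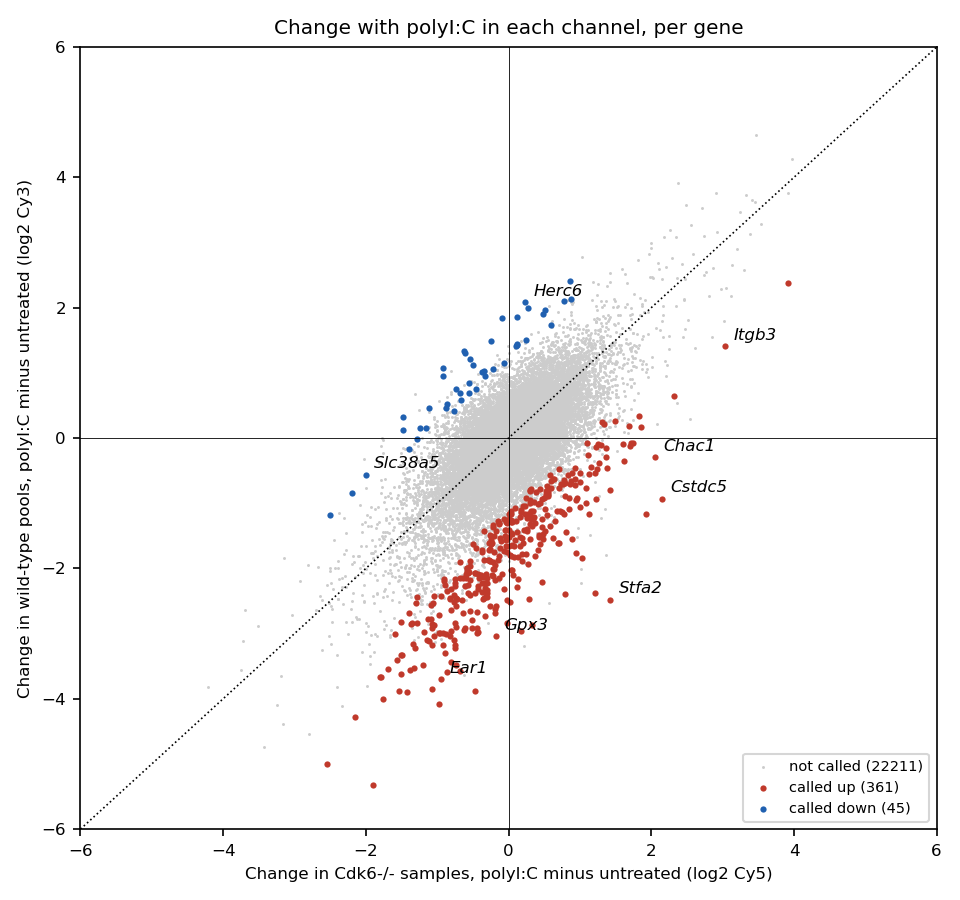
Change with polyI:C in the wild-type pools (vertical axis, log2 Cy3) against the change in Cdk6-/- samples (horizontal axis, log2 Cy5), 1 point per gene. Genes called up (361, red) lie below the dotted line of equal change, mostly near 0 on the horizontal axis and near -1.74 on the vertical axis, and genes called down (45, blue) lie above it; grey points are the genes not called.

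The stefin A genes had the largest differences. Stefins are small inhibitors of cysteine proteases that myeloid cells make, encoded side by side by near-identical genes, so their probes may read each other's RNA and are not independent. Of 10 listed, 6 were measured and 5 rose (1.6% of all genes did), with a median difference of 3.13 against 0.04 over all genes. The summed signal of the 6 lay between 10790 and 11690 in the untreated pool and between 2649 and 4051 in the treated pool, while in Cdk6-/- samples it was between 2882 and 8090 untreated and between 11290 and 21930 treated. The summed signal was thus higher after polyI:C in Cdk6-/- samples and lower in the pool, with no overlap between treatments in either.

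Stfa2 had the largest difference of the 6. Untreated, its log2 ratio was -1.47, -1.0 and -2.30, while the polyI:C arrays gave 2.53, 1.90 and 2.53. The ratio rose by 3.91 (SE 0.35, limma adjusted p = 0.00401, n = 3 against 3), with 4.41 within slide 1, 2.90 within slide 2 and 3.8 without polyI:C array 3 (adjusted p = 0.0552). Both channels moved, in opposite directions. In the pool the level was 11.70, 11.74 and 11.76 untreated and 9.49, 9.33 and 8.94 treated. In Cdk6-/- samples it was 10.23, 10.74 and 9.46 untreated and 12.01, 11.23 and 11.47 treated, a change of 1.43 (SE 0.41, limma adjusted p = 0.249).

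The other stefins differed in which channel carried the change. Cstdc5 was mainly a Cdk6-/- gene, with levels from 8.82 to 10.58 untreated and from 11.35 to 12.52 treated (4.42-fold higher), against a change of -0.93 in the pool (difference 3.07, SE 0.40, adjusted p = 0.012). Stfa1 moved in both, by 1.92 in Cdk6-/- samples and -1.16 in the pool (difference 3.08, adjusted p = 0.012), and in Cdk6-/- samples alone without polyI:C array 3. Cstdc4 was a pool gene, 7.32-fold lower in the treated pool and at 0.33 in Cdk6-/- samples (difference 3.20, adjusted p = 0.0104), and so was Stfa2l1 (-2.39 in the pool, difference 3.18, adjusted p = 0.0158). The sixth member, Stfa3, had a difference of 0.81 and did not pass (adjusted p = 0.368), and its ratio was already above 0 on untreated arrays 1 and 2.

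**Figure D3:**
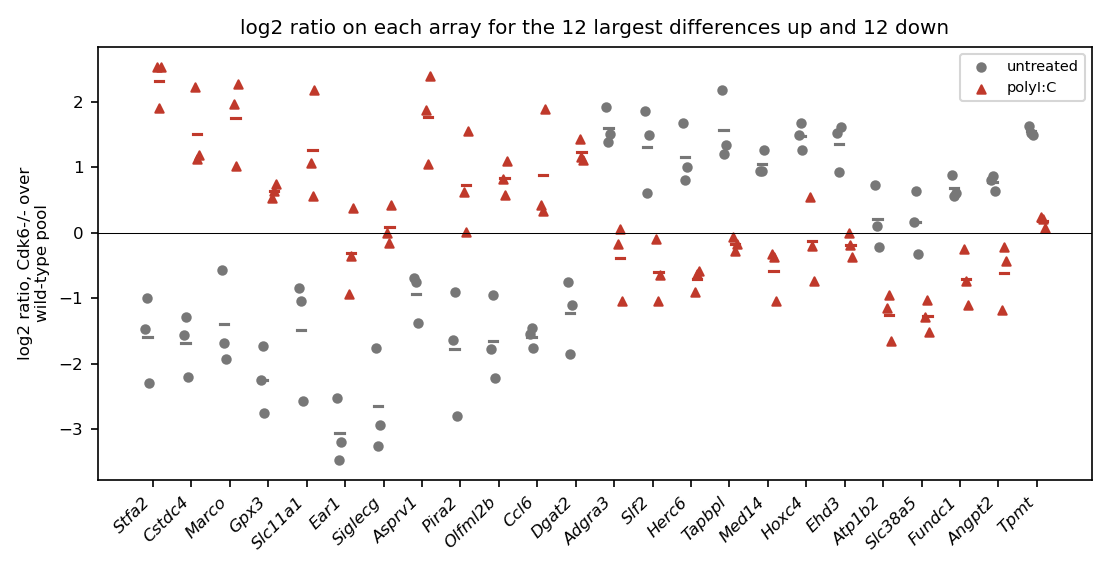
Log2 ratio of Cdk6-/- to the wild-type pool (vertical axis) on each array for the 12 largest differences up and the 12 largest down (horizontal axis), with grey circles for untreated arrays, red triangles for polyI:C arrays and bars for the means of 3. For Stfa2 the untreated points lie between -2.30 and -1.0 and the polyI:C points between 1.90 and 2.53, and the points of the 2 treatments do not overlap for any gene shown.

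Most measured genes of neutrophil granules rose in ratio, and the level that moved was that of the wild-type pool. Neutrophil precursors fill secondary granules with antimicrobial proteins and metalloproteases, and carry large amounts of S100a8 and S100a9, the subunits of calprotectin. Of 22 measured genes of this list, 14 (63.6%) rose and 0 fell, against 1.6% and 0.199% of all genes. The median difference was 1.83, and all 22 were above 0. In 21 the treated ratios lay entirely above the untreated ones (14.4% of all genes). The pool level moved down in all 22 (8.02% of all genes), with a median of -2.27. Cdk6-/- samples had a median of -0.49 and moved down in 3 (2.99%). The summed signal was 557100 to 721500 in the untreated pool and 105300 to 141200 in the treated pool, 4.89-fold lower. In Cdk6-/- samples the sums overlapped, from 237200 to 386300 untreated and from 217800 to 306400 treated. These are bulk samples, so fewer cells of a type and less RNA per cell cannot be told apart.

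S100a8 shows the pattern of the list. It had log2 ratios of -0.93, -0.56 and -1.92 untreated and 1.0, 0.85 and 1.36 after polyI:C. Its level was 15.50, 15.37 and 15.70 in the untreated pool and 13.94, 13.72 and 13.10 in the treated pool, while in Cdk6-/- samples the values overlapped, from 13.78 to 14.81 untreated and from 14.46 to 14.94 treated. The S100a8 ratio rose by 2.21 (SE 0.35, adjusted p = 0.0178), and that of S100a9 by 1.97 (adjusted p = 0.0202). Neutrophils leave the marrow and find inflamed tissue with the chemokine receptor Cxcr2, whose ratio was -1.55, -1.12 and -2.17 without and 0.72, 0.36 and 1.01 with polyI:C (difference 2.31, SE 0.32, adjusted p = 0.012). Cxcr2 was 7.67-fold lower in the treated than in the untreated pool. The collagenase Mmp8 (2.16, adjusted p = 0.019), the gelatinase Mmp9 (1.81, adjusted p = 0.0354), the bacterial sensor Pglyrp1 (2.40, adjusted p = 0.0149) and Cebpe, a transcription factor that secondary granule genes need (1.75, adjusted p = 0.0439), rose as well. The granule proteins Ngp (1.88, adjusted p = 0.0502), Camp (1.63, adjusted p = 0.0595), Lcn2 (1.77, adjusted p = 0.0591) and Ltf (1.60, adjusted p = 0.0817) had differences of like size that did not pass. With median centring S100a6, Mmp9, Cebpe and Padi4 no longer passed, the last at 1.12 (adjusted p = 0.124).

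Of the primary granule and early myeloid genes, 2 of 12 rose (1.6% of all genes did), both transcription factors of the myeloid line. Spi1 (PU.1) was at -1.09, -1.01 and -1.63 untreated and 0.22, 0.32 and 0.49 after polyI:C (difference 1.59, SE 0.26, adjusted p = 0.019), and its level moved in the pool alone, by -1.87. Cebpa rose by 1.09 (SE 0.23, adjusted p = 0.0461), a call that median centring ended (0.92, adjusted p = 0.162). Neither channel of Cebpa passed the size rule, with -0.78 in the pool and 0.31 in Cdk6-/- samples. Elane (1.53, adjusted p = 0.074) and Mpo (1.46, adjusted p = 0.105), the enzymes of primary granules, did not pass. The ratio of Spi1 rose, though its mean level rose in neither channel. The letters GAGGAAGT, a core that PU.1 binds, were searched on both strands of RefSeq promoters on GRCm38.p6 (250 bases before to 50 after the start of transcription). They were present for 3.84% of the tested genes with a promoter, for 20 of 209 genes called up (9.57%), for 3 of 18 granule genes (16.7%) and for 1 of 23 called down. The share was 6 of 46 (13%) in the interferon-induced lists, whose median differences were below 0, and 0 of 6 in the stefin A cluster. Itgb2l, 1 of the 3 granule genes with a match, had the smallest difference of its list (0.51) and was not called. The 2 granule genes shown carry the match, in capitals, on the strand opposite to the gene, so it is written as its reverse complement, for S100a8 at chr3:90668874-90668931 (+ strand) and for Mmp8 at chr9:7558183-7558240 (+ strand).
S100a8: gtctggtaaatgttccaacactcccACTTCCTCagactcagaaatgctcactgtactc
Mmp8: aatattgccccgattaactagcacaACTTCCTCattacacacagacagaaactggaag
A match is a run of letters and not a measured binding site. Whether PU.1 had a part in these differences was not tested.

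Eosinophil genes started from the lowest untreated ratios. The Ear ribonucleases are near-identical proteins of eosinophil granules, and their probes are not independent. Of 13 measured eosinophil genes, 6 (46.2%) rose and 0 fell, against 1.6% and 0.199% of all genes, with a median difference of 1.85. The median ratio was -2.28 untreated and -0.26 after polyI:C, the latter with a spread between arrays, from -0.72 on array 1 to 0.25 on array 3. Ear1 was at -2.52, -3.47 and -3.19 untreated and at -0.94, -0.36 and 0.37 after polyI:C (difference 2.75, SE 0.37, adjusted p = 0.012; 1.92 within slide 1, 3.11 within slide 2 and 2.41 without polyI:C array 3). Its level was 14.61, 14.91 and 14.54 in the untreated pool and 10.99, 11.01 and 10.97 in the treated pool, 12.9-fold lower. Without polyI:C array 3 Ear1 moved in both channels. Ear2, Ear6, Ear10 and Rnase2a moved down in both genotypes by the size rule, with changes between -4.01 and -3.49 in the pool and between -1.76 (Ear6) and -1.2 (Ear10) in Cdk6-/- samples. Alox15, a lipoxygenase of eosinophils and resident macrophages, rose by 2.40 (SE 0.35, adjusted p = 0.0149). Prg2, the granule major basic protein, had a larger difference, 3.02, but a wider spread (SE 0.65), and did not pass (adjusted p = 0.0502). The summed signal of the list was 97510 to 113300 in the untreated pool and 14510 to 17240 in the treated pool, and 17480 to 25270 and 9864 to 16730 in Cdk6-/- samples.

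Single members of the macrophage list rose. Of 24 monocyte and macrophage genes, 2 rose (1.6% of all genes did). The scavenger receptor Marco was at -0.57, -1.68 and -1.93 untreated and 1.96, 1.01 and 2.27 after polyI:C (difference 3.14, SE 0.42, adjusted p = 0.012), and the lysozyme Lyz2 rose by 2.18 (SE 0.33, adjusted p = 0.0166). Marco was 7.80-fold lower in the treated pool and at 0.18 in Cdk6-/- samples, where its treated values, from 9.69 to 11.81, spanned the untreated ones. The summed signal of these 24 genes was 165400 to 182500 in the untreated pool, 86750 to 147200 in the treated pool, and 163700 to 201400 and 137700 to 194900 in Cdk6-/- samples. The list's median difference was 1.06, with 20 of 24 above 0. In 14 the treated ratios lay entirely above the untreated ones (14.4% of all genes), and the pool moved down in 18 (8.02%). At its lower end, Csf1r, the receptor that defines the lineage, had a difference of -0.32 (adjusted p = 0.56) and changes of -0.22 in Cdk6-/- samples and 0.09 in the pool. Slc11a1, a metal transporter of phagosomes, rose by 2.75 (SE 0.51, adjusted p = 0.0285), through the pool alone.

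Of 18 B lineage genes, 4 rose and 0 fell, against 1.6% and 0.199% of all genes, with a median difference of 1.38. Among them, the lectin Siglecg rose by 2.74 (SE 0.38, adjusted p = 0.0124), the antigen receptor chain Cd79b by 1.65 (SE 0.26, adjusted p = 0.0178) and the adaptor Bank1 by 1.65 (SE 0.31, adjusted p = 0.0305). Another probe gave smaller differences for Siglecg (1.48) and Bank1 (1.06). The Cd79b ratio was -1.27, -1.28 and -1.93 without and 0.15, 0.19 and 0.14 with polyI:C. Cd79b and Bank1 did not pass with median centring (adjusted p = 0.0502 and 0.0737). The pool level moved down in 16 of the 18 (8.02% of all genes). The list's summed signal was 64250 to 66240 in the untreated and 22710 to 34910 in the treated pool. In Cdk6-/- samples it was 26710 to 38620 untreated and 19130 to 47060 treated, the highest on polyI:C array 3.

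Of 19 measured endothelial and stromal genes, 3 rose (1.6% of all genes did), with a median difference of 0.98. Their summed signal was 32670 to 32830 in the untreated pool and 8175 to 9056 in the treated pool, and 13150 to 21240 and 7936 to 9740 in Cdk6-/- samples. Lepr, the leptin receptor of marrow stromal cells, had pool levels of 9.51, 9.62 and 9.42 untreated and 7.06, 6.75 and 7.02 treated, and was well above background on none of the 6 arrays in Cdk6-/- samples (difference 2.30, SE 0.30, adjusted p = 0.012). Another Lepr probe gave a difference of 1.51. Decorin, Dcn, a matrix protein, was at 9.75, 9.79 and 10.01 in the untreated and 6.65, 6.63 and 7.17 in the treated pool (difference 2.22, SE 0.28, adjusted p = 0.0119). Spp1 (osteopontin) rose by 1.34 (SE 0.23, adjusted p = 0.0223). In the treated pool Lepr and Dcn were well above background on 1 of 3 arrays, so their ratios after polyI:C compare signals near background. The part that other cell types had in these differences was not tested.

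Gpx3 and Cxcr4 rose outside the lineage lists. Gpx3 encodes a secreted glutathione peroxidase, and its ratio was -2.25, -1.74 and -2.75 without and 0.52, 0.63 and 0.74 with polyI:C. The Gpx3 level was 12.08, 12.03 and 12.02 in the untreated and 8.85, 9.20 and 8.95 in the treated pool, 8.25-fold lower, while it stayed between 9.27 and 10.30 in all 6 Cdk6-/- samples (difference 2.87, SE 0.29, adjusted p = 0.00733). It was the only one of 19 antioxidant enzymes called, and the list's median difference was -0.15. Cxcr4, the receptor that retains HSCs in the marrow, was at -1.04, -1.14 and -1.12 untreated and 0.00, 0.15 and 0.51 after polyI:C (difference 1.32, SE 0.24, adjusted p = 0.0285). In the pool its level was 15.07, 15.25 and 15.18 untreated and 13.68, 13.92 and 13.09 treated. In Cdk6-/- samples it lay between 13.61 and 14.11 throughout, so the genotypes did not overlap before treatment and did after it. Cxcr4 did not pass with median centring (1.19, adjusted p = 0.068).

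**Figure D4:**
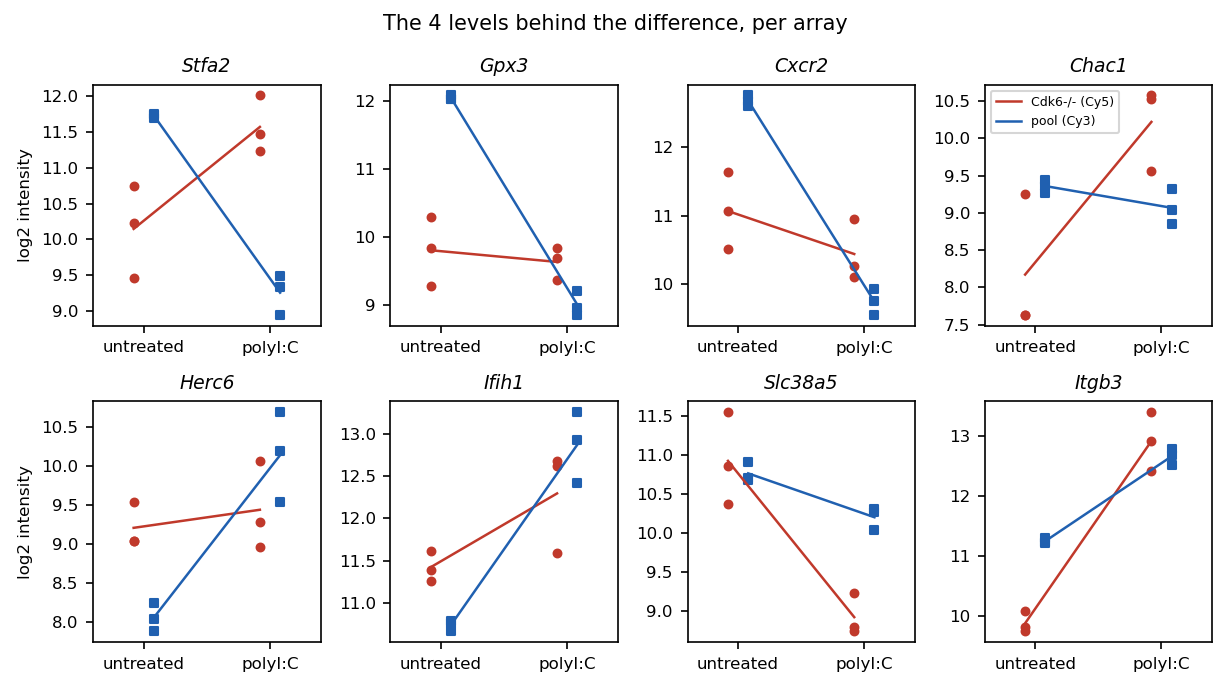
Log2 intensity (vertical axis) of 8 genes on each array, untreated and after polyI:C (horizontal axis), with red circles and line for Cdk6-/- samples (Cy5), blue squares and line for the wild-type pools (Cy3), and lines joining means of 3. Gpx3, Cxcr2 and Herc6 moved in the pool alone, Chac1 and Slc38a5 in Cdk6-/- samples alone, Stfa2 in opposite directions and Itgb3 upward in both.

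A smaller set moved on the Cdk6-/- side. Chac1, an enzyme that degrades glutathione and is induced by the integrated stress response, had levels of 9.25, 7.63 and 7.63 in untreated and 10.57, 9.56 and 10.52 in treated Cdk6-/- samples. In the pool Chac1 lay between 8.85 and 9.44 under both treatments. The difference was 2.34 (SE 0.46, adjusted p = 0.0349) and the change in Cdk6-/- samples 2.05 (SE 0.51, adjusted p = 0.186). Clec4a1, a lectin receptor of myeloid cells, changed by 1.42 in Cdk6-/- samples and -0.80 in the pool (difference 2.22, SE 0.36, adjusted p = 0.019). Among the 8 down through Cdk6-/- alone, Slc38a5, a glutamine transporter, had 10.85, 11.55 and 10.36 untreated and 8.73, 9.23 and 8.79 treated, against 10.03 to 10.90 in the pool (difference -1.44, SE 0.30, adjusted p = 0.0425). Hoxc4, a homeobox gene, was at least 2.78-fold lower in treated Cdk6-/- samples, where it was not well above background (difference -1.60, SE 0.33, adjusted p = 0.0436). The pool was not well above background untreated either, so a lower level there could not have been seen.

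Only 5 of the 406 also passed the limma test of the change within Cdk6-/- samples, which called 37 genes in all (0.164%). The 4 with a symbol are named here for that reason, with their values already known. Itgb3, the integrin beta chain of platelets and megakaryocytes, had levels of 10.08, 9.75 and 9.82 untreated and 12.92, 13.40 and 12.42 treated (8.17-fold higher, adjusted p = 0.0193), against 11.21, 11.31 and 11.23 and then 12.78, 12.68 and 12.52 in the pool. Its ratio rose by 1.62 (SE 0.28, adjusted p = 0.0223): Cdk6-/- samples lay below the pool untreated and overlapped it after polyI:C. Another Itgb3 probe gave a difference of 0.73, so the Itgb3 levels given rest on 1 probe. Cfb, complement factor B, was not well above background in untreated Cdk6-/- samples, at least 13.5-fold above that in treated ones, and 5.19-fold higher in the treated pool (difference 1.54, SE 0.28, adjusted p = 0.0285). Clu (clusterin), a secreted chaperone, was 4.97-fold higher in treated Cdk6-/- samples and 1.56-fold higher in the treated pool (difference 1.67, SE 0.25, adjusted p = 0.0166). Fzd4, a Wnt receptor, was 5.67-fold lower in treated Cdk6-/- samples and 2.27-fold lower in the treated pool, and it was the single gene called down that the size rule counts as moved down in both channels (difference -1.32, SE 0.28, adjusted p = 0.0462).

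On the falling side were interferon-induced genes, for most of which the pool level was higher after polyI:C by more than the Cdk6-/- level was. The interferon-stimulated response element (ISRE) is the DNA motif through which interferon factors switch on these genes. Of 16 measured GTPases of the GBP and IRG families, which attack vacuoles that hold pathogens, 1 fell and 0 rose, while all 16 had a difference below 0 (13 at unadjusted p under 0.05, against 16.5% of all genes). Their median difference was -0.97, and in 10 of 16 the treated ratios lay entirely below the untreated ones (8.48% of all genes). The pool level moved up in 15 of 16 (4.04% of all genes), with a median of 1.78. Cdk6-/- samples moved up in 2 (2.87% of all genes), with a median of 0.81. Many members are near-identical, so the 16 are not independent.

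The called member was Iigp1, with log2 ratios of 0.71, 0.46 and 1.05 untreated and -0.72, -0.55 and -0.47 after polyI:C (difference -1.32, SE 0.25, adjusted p = 0.0319; -1.04 with adjusted p = 0.125 under median centring). Iigp1 had levels from 11.27 to 12.22 in the untreated pool, and in the treated pool its lowest was 13.56 and its median 13.75, 4.30-fold higher. In Cdk6-/- samples it was 12.93, 11.73 and 12.57 untreated, and 13.28, 13.20 and 13.10 treated, below the treated pool. Tgtp1 (-1.29, adjusted p = 0.0904), Irgm2 (-1.18, adjusted p = 0.0728), Gbp3 (-1.10, adjusted p = 0.121), Igtp (-0.93, adjusted p = 0.176) and Gbp2 (-0.81, adjusted p = 0.193) did not pass. For Irgm2 the ratios were 0.24, 0.30 and 0.78 untreated and -0.62, -0.40 and -1.2 after polyI:C, with no overlap.

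The promoters of these GTPases share the ISRE core, searched as GAAA, any 2 bases and GAAA again on both strands of the same 300-base RefSeq windows. Of 10 family members with a promoter in the table, 9 (90.0%) carried it, against 3.99% of all 27025 genes of the table. Among genes called down it was present for 3 of 23 (13.0%), Ifih1, Eif2ak2 and Eomes, and among genes called up for 12 of 209 (5.74%). The windows shown run along each gene's strand on GRCm38.p6 with the match in capitals, written as its reverse complement in Gbp2 and Gbp3. They lie at chr3:142620579-142620638 (+, Gbp2), chr3:142559974-142560033 (+, Gbp3), chr11:58214888-58214947 (+, Irgm2), chr11:48992289-48992348 (-, Tgtp1) and chr11:58199497-58199555 (+, Igtp). The last 2 are called genes, at chr2:62646206-62646233 (-, Ifih1) and chr17:78882535-78882564 (-, Eif2ak2), both just past the start.
Gbp2: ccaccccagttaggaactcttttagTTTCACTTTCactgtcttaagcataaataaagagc
Gbp3: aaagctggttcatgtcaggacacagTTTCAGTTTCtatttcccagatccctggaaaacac
Irgm2: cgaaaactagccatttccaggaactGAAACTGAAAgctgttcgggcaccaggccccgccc
Tgtp1: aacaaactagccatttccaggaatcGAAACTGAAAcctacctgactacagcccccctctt
Igtp: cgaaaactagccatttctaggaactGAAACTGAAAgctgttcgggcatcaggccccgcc
Ifih1: gaagagaatcGAAACAGAAAccgatctg
Eif2ak2: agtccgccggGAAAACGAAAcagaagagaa
None of the 9 GTPase genes with the motif was called. The called member, Iigp1, was not among the 10 with a promoter and so was not searched. Ifih1 and Eif2ak2 belong to other lists. A match is a description.

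Of 11 measured genes that sense double-stranded RNA or relay the signal, such as the adaptor Mavs and the kinase Tbk1, 2 fell, both of them sensors that bind such RNA. Ifih1 (MDA5), the cytosolic sensor of long double-stranded RNA, was at 0.85, 0.59 and 0.60 untreated and -0.64, -0.26 and -0.83 after polyI:C (difference -1.26, SE 0.25, adjusted p = 0.0387). Its level was 10.76, 10.66 and 10.79 in the untreated and 13.26, 12.93 and 12.42 in the treated pool. In Cdk6-/- samples it was 11.62, 11.26 and 11.39, and then 12.62, 12.67 and 11.59, the last on polyI:C array 3. Eif2ak2 (PKR), the kinase that halts translation when it binds such RNA, was at 0.54, 0.59 and 0.89 untreated and -0.31, -0.56 and -0.50 after polyI:C (difference -1.13, SE 0.24, adjusted p = 0.0453). With median centring neither passed (Ifih1 -1.07, adjusted p = 0.149; Eif2ak2 -1.18, adjusted p = 0.0796), and Ifih1 was at -0.82 (adjusted p = 0.171) as the mean of its 2 probes. The median difference of the 11 was -0.25.

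Herc6, the mouse ligase that attaches the ubiquitin-like protein ISG15, had by its brightest probe the largest difference of the called interferon-induced genes. Its ratio was 1.67, 0.80 and 1.0 without and -0.90, -0.62 and -0.58 with polyI:C (difference -1.86, SE 0.28, adjusted p = 0.0171). Another Herc6 probe gave a difference of -0.76, so this rank and the levels given rest on 1 probe. Herc6 had levels of 7.88, 8.25 and 8.04 in the untreated and 10.19, 10.70 and 9.54 in the treated pool, 4.25-fold higher, while Cdk6-/- samples lay between 8.96 and 10.07 under both treatments. Tapbpl, which edits peptides on MHC class I, was at 2.18, 1.2 and 1.33 untreated and -0.06, -0.28 and -0.17 after polyI:C (difference -1.74, SE 0.30, adjusted p = 0.0216). Its level was 3.62-fold higher in the treated pool and between 9.02 and 10.26 in all Cdk6-/- samples. For both genes the untreated Cdk6-/- levels lay above all 3 untreated pool levels.

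Most interferon-induced genes did not pass. Of 27 antiviral effectors 1 fell (Eif2ak2) and 0 rose, with a median difference of -0.48. Of the 27, 11 were at unadjusted p under 0.05, against 16.5% of all genes. In 11 the treated ratios lay entirely below the untreated ones (8.48% of all genes), and in 3 above (14.4%). The median change of the 27 was 1.62 in the pools and 1.25 in Cdk6-/- samples. Irf7, the transcription factor that amplifies interferon output, changed by 3.62 in the pool and 3.46 in Cdk6-/- samples (limma adjusted p = 0.0107 for the latter; difference -0.16, adjusted p = 0.818). Isg15 had a difference of -0.11 (SE 0.27, adjusted p = 0.895) and Ifit1 of -1.08 (SE 0.26, adjusted p = 0.0674). Of 8 oligoadenylate synthetases, which make the second messenger that activates RNase L, limma called 0 (1 at unadjusted p under 0.05), with a median of -0.32. Median centring moved that median to -0.06 and that of the antiviral effectors to -0.25.

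**Figure D5:**
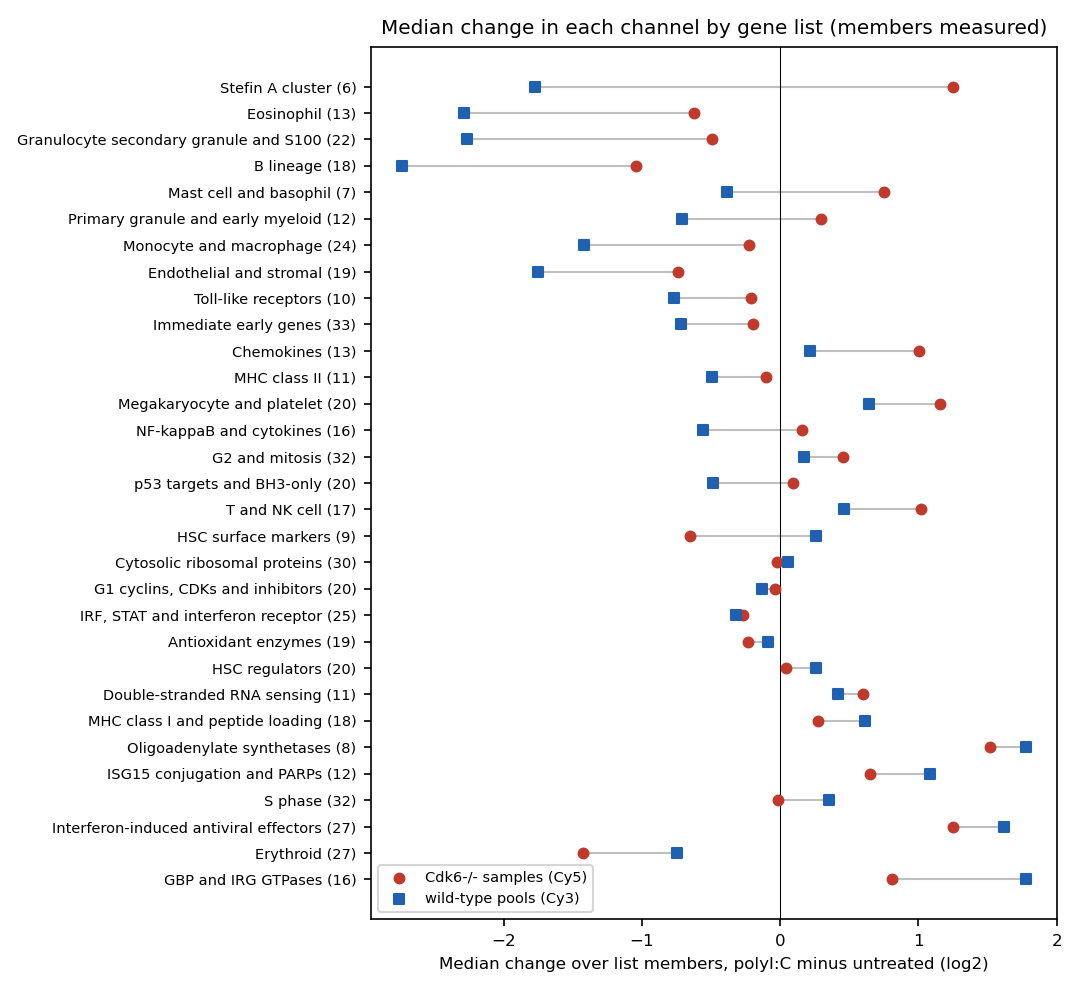
Median change with polyI:C over the measured members of each gene list (horizontal axis, log2) in Cdk6-/- samples (red circles) and in the wild-type pools (blue squares), ordered by the median difference (vertical axis, members measured in brackets). Granulocyte genes lie at -0.49 in Cdk6-/- samples and -2.27 in the pools, GBP and IRG GTPases at 0.81 and 1.78, and ribosomal protein genes at -0.02 and 0.05.

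Further genes fell through the pool alone. Ehd3, a protein of endocytic recycling, was at 1.52, 0.93 and 1.62 untreated and -0.01, -0.19 and -0.37 after polyI:C (difference -1.55, SE 0.27, adjusted p = 0.023) and 5.31-fold higher in the treated pool. Without polyI:C array 3 Ehd3 was 1.42 log2 units higher in treated Cdk6-/- samples, and so moved in both. Eomes, a transcription factor of cytotoxic lymphocytes, was not well above background in the untreated pool and at least 2.35-fold above that in the treated one (difference -1.31, SE 0.27, adjusted p = 0.0448). Tpmt, which methylates thiopurines, had ratios of 1.63, 1.53 and 1.5 untreated and 0.23, 0.21 and 0.06 after polyI:C (difference -1.38, SE 0.23, adjusted p = 0.019), but its untreated pool level was not well above background, so these ratios are taken against background. Adgra3 (-1.99) and Med14 (-1.63) passed by their brightest probe, but another probe of each gave the opposite sign, and with the mean over probes neither passed (-0.85, adjusted p = 0.163 and -0.42, adjusted p = 0.433). Of the 72 called genes with several tested probes, 66 had the same sign on all.

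Immediate early genes, which answer growth signals within minutes, had a median difference of 0.61 over 33 members, and 1 rose. Of the 33, 27 were above 0 and 15 were at unadjusted p under 0.05, against 16.5% of all genes. In 16 the treated ratios lay entirely above the untreated ones (14.4% of all genes), and in 1 below (8.48%). Ptgs2 (cyclooxygenase-2) was at -1.33, -1.38 and -0.20 untreated and 1.54, 0.86 and 0.48 after polyI:C (difference 1.93, SE 0.38, adjusted p = 0.0366). It was at least 2.44-fold lower in the treated pool, where it was not well above background. Nr4a1 was lower after polyI:C in both channels, with changes of -2.81 in the pool and -1.74 in Cdk6-/- samples, and its difference of 1.07 did not pass (adjusted p = 0.104). Egr1 showed no difference that passed (-0.06, SE 0.25, adjusted p = 0.947): its ratio was 1.28, 1.46 and 1.55 without and 1.37, 1.09 and 1.65 with polyI:C.

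Other large differences up were those of Asprv1, a protease of the skin (2.71, SE 0.36, adjusted p = 0.012), the chemokine Ccl6 (2.47, SE 0.39, adjusted p = 0.0178), Pira2, a receptor of the paired immunoglobulin-like family (2.51, adjusted p = 0.0373), Olfml2b (2.48, adjusted p = 0.012) and Dgat2, which makes triglycerides (2.47, SE 0.31, adjusted p = 0.0119). Ccl6 moved down in both channels, by -3.90 in the pool and -1.43 in Cdk6-/- samples, while Dgat2 changed by -2.48 in the pool and -0.02 in Cdk6-/- samples. Ifi30, a lysosomal thiol reductase, moved in opposite directions (1.13 in Cdk6-/- samples and -1.16 in the pool, difference 2.29, SE 0.35, adjusted p = 0.0171), and in the pool alone without polyI:C array 3. Id3, an inhibitor of basic helix-loop-helix factors, rose by 1.89 (SE 0.34, adjusted p = 0.0263), with 0.95 in Cdk6-/- samples and -0.94 in the pool. Down were also Slf2, of a DNA repair complex (-1.91, SE 0.37, adjusted p = 0.0326), the vessel ligand Angpt2 (-1.38, adjusted p = 0.0455), the mitophagy receptor Fundc1 (-1.38, adjusted p = 0.0392) and the sodium pump subunit Atp1b2 (-1.45, adjusted p = 0.0491), the last of which did not pass with median centring (-1.47, adjusted p = 0.062). Another Slf2 probe gave -0.42, and Slf2 was well above background on 1 of 3 arrays in the untreated pool.

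Among further immune lists, 1 of 10 Toll-like receptors rose, Tlr13, a sensor of bacterial RNA (1.77, SE 0.26, adjusted p = 0.0154). Of 11 MHC class II genes 1 rose, H2-DMb2 (1.95, adjusted p = 0.0486, and 1.69 with adjusted p = 0.0685 under median centring), and of 18 MHC class I genes Tapbpl alone fell. Of 17 T and NK cell genes, 0 moved down and 6 moved up in each channel (pool 4.04%, Cdk6-/- 2.87% of all genes). Their summed signal was 7795 to 10780 and then 22880 to 29060 in Cdk6-/- samples, and 9349 to 10300 and then 23250 to 27520 in the pool, and the ratio of 1, Eomes, fell. All 16 measured NF-kappaB and cytokine genes had a difference above 0, with a median of 0.47, and limma called 0 of them (6 at unadjusted p under 0.05, against 16.5% of all genes).

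Genes of the cell cycle and of HSC identity gave few calls. In G1 (20 genes), S phase (32) and G2 and mitosis (32) limma called 0, with 4, 7 and 6 at unadjusted p under 0.05, shares near the 16.5% of all genes, and median differences of -0.05, -0.45 and 0.29. The proliferation marker Mki67 was at 0.44 (SE 0.29, adjusted p = 0.5), Cdk4 at -0.45 (adjusted p = 0.482), Ccnd1 at -0.11, Ccnd2 at -0.19 and Ccnd3 at 0.61 (adjusted p = 0.214). In 14 of the 32 S phase genes the treated ratios lay entirely below the untreated ones (8.48% of all genes), and in 3 above (14.4% of all genes). Of 9 HSC surface markers 0 were called (1 at unadjusted p under 0.05): Kit had a difference of -0.97 (adjusted p = 0.19) and Procr of 0.09. The Procr level was lower after polyI:C in both channels, by 5.94-fold in the pool and 5.59-fold in Cdk6-/- samples. Of 20 HSC regulators Cxcr4 alone passed. Erythroid genes had a median of -0.61 over 27 members with 0 called (5 at unadjusted p under 0.05, a share near that of all genes). The globin gene Hba-a1 showed how uneven they were, with ratios of -2.97, 1.55 and -2.48 on the polyI:C arrays against 0.37, 0.91 and 0.12 untreated. Of 20 megakaryocyte and platelet genes, Itgb3 and the platelet chemokine Ppbp rose, the latter by 2.06 (SE 0.35, adjusted p = 0.0216). Over 30 cytosolic ribosomal protein genes the median difference was -0.01 and limma called 0, also at unadjusted p under 0.05.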

How the data were processed

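Per the labels, the 6 arrays had 2 colours, with Cdk6-/- RNA in Cy5 and wild-type pool RNA in Cy3. Per the labels' protocols, RNA was amplified by whole transcriptome amplification and labelled with dyes that bind guanine, with RNA integrity between 5,3 and 8,9. Per the file headers, the software was Agilent Feature Extraction 11.5.1.1. Deposited were, for each array, median spot and background intensity, processed intensity, a log10 ratio of red to green and flags. The deposited value table is in log2 and equals the log2 ratio of processed Cy5 to Cy3 within 2.52e-06. The plan named mean signals, but the median signals in the files were used.

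Signals were corrected with normexp (offset 50) and loess in limma 3.58.1 (R 4.3.3, statmod 1.5.0), leaving out control spots and spots marked as outlying or non-uniform (0.657%). A probe entered the tests if 1 channel was well above background on all 3 arrays of a group, which 31782 of 55681 were and 23899 were not. The brightest probe stood for a gene, giving 22617 genes (13625 with a symbol, 22244 of 23839 RefSeq accessions matched). Of the called genes, 3 had a missing value on an array. The difference was a contrast of 1 fit with a mean per treatment (lmFit, eBayes, 4 residual degrees of freedom), adjusted by Benjamini and Hochberg over all genes, with a threshold of 0.05. Levels are log2 intensity after loess and Aquantile, which equalizes mean intensities across arrays. A fold given as at least sets the brighter mean against the higher of the dim value and the lowest signal well above background. SE are of these fits. The script was tested on simulated data. No spot was saturated. The p-values measure spread between Cdk6-/- samples, not between wild-type mice, and no exact permutation test of 3 against 3 arrays can give a p below 0.1. Replicate numbers follow deposition order and pair nothing.

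Members and gene lists were chosen with earlier results of these data known. Named were the 12 largest differences per direction (a family once), called list members, each list's brightest and extreme members, the 3 largest per class of moved level, and Cdk6, Cdk4, D-type cyclins, Egr1, Mki67, Isg15 and Ifit1. Not every gene named by that rule is printed, and 1 result is not reported here. Alternatives covered normalization, background, filter, probe choice, slide, array weights and leaving out arrays.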

Additional observations from a re-analysis of the deposited data

Results flagged for a closer look

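For 13 genes the genotypes differed in opposite directions under the 2 treatments, with the ratio called lower in Cdk6-/- samples when untreated and called higher after polyI:C, and with the difference itself past the limma threshold. Of the stefin A cluster these were Stfa2 (difference 3.91), Cstdc4 (3.20) and Stfa2l1 (3.18), which are near-identical and not independent. Myeloid genes among them were Marco (3.14), Wfdc21, a protease inhibitor of granulocytes (2.11), C5ar1, the receptor for the complement fragment C5a (1.94), Chil4, a chitinase-like protein (1.89), and AA467197 (2.0). The others were the skin protease Asprv1 (2.71), Dgat2, the last enzyme of triglyceride synthesis (2.47), the GTPase Rhob (1.92), Clu (1.67) and Tsc22d3, a glucocorticoid-induced gene (1.65). C5ar1 had a narrow spread, with ratios of -0.92, -0.85 and -0.75 untreated and 1.14, 0.96 and 1.19 after polyI:C. Clu was the only one of the 13 with the Cdk6-/- level alone moved, Stfa2 moved in both channels, and the other 11 moved in the pool alone. An untreated or treated ratio holds any dye bias of its probe, while a bias that is constant between treatments cancels in the difference.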

How the results depend on the processing

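Under median centring, processed signals and the mean over probes all 406 called genes kept their direction, and 405 did with no filter on dim probes. The counts moved. Against 406 genes called (361 up, 45 down), median centring in place of loess called 241 (204 up), processed signals 186 (158 up, 28 down), no filter on dim probes 253 (229 up, 24 down), and the demand that both channels be above background on all arrays 266 (234 up). The mean over a gene's probes called 74 down and slide as a random block 77 down. Array weights called 1423 (1088 up, 335 down). With slide as a fixed block, and without both arrays low in Xist, 0 were called in either direction. Leaving out 1 array at a time gave 6 to 379 genes in all, 6 to 344 up and 0 to 35 down, with 177 without untreated array 1, 67 without untreated array 3, 100 and 86 without polyI:C array 1 and 2, and 6 without polyI:C array 3. Of the 406, 6 were called in all 6 such fits and 106 in none. The number of called genes moved in the pool alone ranged from 211 to 249 up and from 23 to 25 down over the settings for levels; the 2 of these settings without arrays were chosen after seeing the data. Why counts differ between settings was not tested, beyond fewer arrays or genes in a fit. Precision is limited by having 6 arrays and by dim signals. No paired analysis was possible because the labels carry no replicate number shared between treatments.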
